A study of Homo sapiens with 4 samples.

Results

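MicroRNA genes, listed in the count tables as short precursors, were examined by where each precursor lies relative to other genes, and by their RNA sequencing counts after RALY knockdown. The members were the genes of GENCODE biotype miRNA with a mean of 10 or more counts over the 4 libraries. They numbered 181 of the 1877 microRNA genes, and of 58884 genes in all. They were thus chosen by their mean count in these libraries, and not by the difference between the groups. A gene with few counts in 1 group could still pass through the other, so counts and medians over the members are given as descriptions. A precursor sharing at least 1 base with an exon of another gene, on either strand, was taken as exonic. One with no such base, but inside the span of another gene, was taken as intronic, and the rest as intergenic. Of the members, 141 were exonic, 37 intronic and 3 intergenic.

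The libraries came from HCT116, an established human colorectal carcinoma cell line, and the study asked which transcripts differ when RALY is depleted. RALY belongs to the hnRNP family of RNA-binding proteins. One group of 2 libraries came from cells given lentivirus with a short hairpin RNA against RALY, and the other of 2 libraries from control cells. The protocol names a nonsilencing hairpin and 72 h of treatment, while other labels call the controls wild type or untreated. Hence it is not known whether the controls carried that hairpin. The sources used here do not give the number of hairpins, and no label states separate cultures for the replicates. The p-values therefore rest on a spread that may be technical.

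Most microRNAs are cut from a longer transcript. The nuclear enzyme DROSHA, with its partner DGCR8, releases a hairpin precursor, DICER1 trims it, and an Argonaute protein carries 1 strand, whose seed pairs with target messenger RNAs. Many precursors sit in introns of host genes, and some, called mirtrons, have ends set by the splice sites of a short intron. Reads of standard RNA sequencing over a precursor come largely from the host transcript or its unspliced form, so a count here is a level of RNA over the precursor and not of the mature microRNA.

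The stretches that follow show why position matters for what is counted. They are from hg38 (GRCh38), written 5′ to 3′ on the strand of the host, with host exon bases in capitals and all other bases in lower case. The MIR6807 stretch is chr19:58550265-58550396 on the plus strand, where the precursor fills the whole lower-case run between exons of TRIM28. The MIR6753 stretch is chr11:68044774-68044977 on the plus strand, where the precursor ends flush with an exon of TCIRG1. The MIR3940 stretch is chr19:6416390-6416531 on the minus strand, where the precursor crosses the edge of a KHSRP exon and shares 22 of its 102 bases with exons.
MIR6807: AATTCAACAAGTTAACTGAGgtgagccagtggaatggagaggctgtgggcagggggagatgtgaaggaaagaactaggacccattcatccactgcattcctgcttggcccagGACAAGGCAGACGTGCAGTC
MIR6753: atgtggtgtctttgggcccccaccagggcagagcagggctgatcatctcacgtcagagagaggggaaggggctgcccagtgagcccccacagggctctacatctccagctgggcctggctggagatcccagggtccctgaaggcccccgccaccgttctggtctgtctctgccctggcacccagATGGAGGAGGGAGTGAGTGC
MIR3940: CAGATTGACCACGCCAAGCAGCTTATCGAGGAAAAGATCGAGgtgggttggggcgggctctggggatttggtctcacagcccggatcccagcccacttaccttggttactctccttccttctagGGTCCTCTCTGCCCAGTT

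Mature sequences of called members are shown to identify the products these genes are annotated to give. They are from RefSeq (GRCh38), with the seed, bases 2 to 8, in capitals. The first 5 belong to intronic members that were higher after knockdown, the next 4 to exonic members that were higher, and the last 7 to exonic members that were lower.
hsa-miR-6807-5p: gUGAGCCAguggaauggagagg
hsa-miR-6807-3p: cACUGCAUuccugcuuggcccag
hsa-miR-6753-5p: cACCAGGGcagagcagggcuga
hsa-miR-6753-3p: uGGUCUGUcucugcccuggcac
hsa-miR-3176: aCUGGCCUgggacuaccgg
hsa-miR-568: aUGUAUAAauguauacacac
hsa-miR-711: gGGACCCAgggagagacguaag
hsa-miR-6824-5p: gUAGGGGAgguugggccaggga
hsa-miR-6824-3p: uCUCUGGUcuugccaccccag
hsa-miR-6084: uUCCGCCAgucgguggccgg
hsa-miR-29a-5p: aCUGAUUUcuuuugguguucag
hsa-miR-29a-3p: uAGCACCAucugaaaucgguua
hsa-miR-4800-3p: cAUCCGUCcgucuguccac
hsa-miR-943: cUGACUGUugccguccuccag
hsa-miR-1909-5p: uGAGUGCCggugccugcccug
hsa-miR-1909-3p: cGCAGGGGccgggugcucaccg
Each seed occurred in 1 of these sequences, so none was shared among them. MIR612, MIR639 and MIR6848 were also called and are not shown. RefSeq held a hairpin for 151 of the 181 members, each at the coordinates of the deposited tables.

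Library totals were 16493967 and 14762755 counts in the knockdown libraries and 13360007 and 16847520 in the controls. The members took 0.0553% and 0.0564% of the counts in the knockdown libraries and 0.0580% and 0.0563% in the controls. RALY had 634 and 522 counts in the knockdown libraries and 1903 and 2132 in the controls, and its log2 fold change was -1.84 (SE 0.127, quasi-likelihood test of edgeR, adjusted p = 6.59e-06). Of the colorectal epithelial markers, 7 of 10 had enough counts to be tested and CDX2 alone was called, as lower in the knockdown. Of 13 leukocyte, fibroblast and endothelial markers, 6 were tested and none was called by edgeR (4 had an unadjusted p under 0.05), nor any of the 4 to which DESeq2 gave an adjusted p. In bulk RNA, fewer cells of a type and less RNA per cell cannot be told apart.

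Position and count went together. Of 497 exonic microRNA genes, 141 were members (28.4%), against 37 of 1022 intronic (3.62%) and 3 of 358 intergenic genes (0.838%). No count in any library was found for 194 exonic, 587 intronic and 297 intergenic genes. Among the exonic members 139 had an exon on their own strand, 106 lay wholly in exons and 35 crossed an exon edge. In GENCODE release 44, 61 overlapped coding sequence and a further 45 overlapped an untranslated region without coding sequence. A host, the same-strand gene around the precursor with the highest mean count, was found for 174 members. The hosts numbered 170, of which 151 were protein-coding, and 4 of them (DDX5, NDUFS8, DGCR8 and UCKL1) held 2 members each, so members are not independent of each other.

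**Figure D1:**
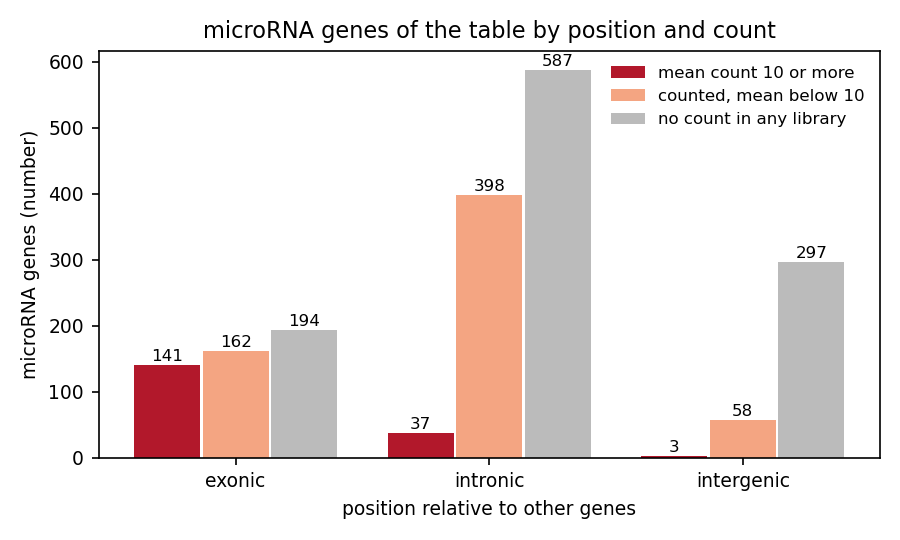
Number of microRNA genes (vertical axis) by position relative to other genes (horizontal axis), split into those with a mean count of 10 or more, those counted below it and those with no count. The exonic class has 141 genes at 10 or more, against 37 intronic and 3 intergenic genes.

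The members with the highest counts lay mostly in exons of other genes. Of the 20 members with the highest mean counts, 19 were exonic and none was called by edgeR (1 had an unadjusted p under 0.05) or by DESeq2, with log2 fold changes between -0.58 and 0.48. The one of these in an intron was MIR1244-2, at -0.58 (edgeR adjusted p = 0.081, and 0.0253 with the replicate block). MIR1244-1, in an exon of PTMA, which encodes prothymosin alpha, had 232 and 221 counts in the knockdown libraries and 161 and 313 in the controls. MIR5047, in an exon of the RNA helicase gene DDX5, had 206 and 201 counts in the knockdown libraries and 212 and 242 in the controls. MIR3652, in HSP90B1, which encodes a chaperone of the endoplasmic reticulum, had 12.3 and 11.6 CPM in the knockdown libraries and 15.9 and 12.8 CPM in the controls (counts per 1000000 of the scaled library total). The groups overlapped for MIR1244-1 and did not for the other genes, and none of the 3 passed the test (edgeR adjusted p = 0.891, 0.530 and 0.389). Counts per base of precursor were 1.25 to 2.996 in these 20 members, and those of their hosts 0.169 to 1.17 per base of exon. A read that spans the edge of a short precursor counts in full, so the levels per base are not on an equal footing between precursors and hosts.

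Genes were called at an adjusted p under 0.05 over all 19686 genes tested, with log2 fold changes as knockdown over control. Of the 179 members with a test, 7 were higher after knockdown and 7 lower. This is 7.82%, against 25.6% of all genes (12.5% higher and 13.1% lower). Of genes with a mean count from 10 to 231.75, the range of the members, 21.1% were called. That set includes the members and was not matched to the spread of their counts within the range. Member counts were low, with a median of the mean count of 31.5. Of those called higher, MIR612, MIR711 and MIR3176 had no control library above 10 counts, so they met the rule through the knockdown libraries. The reverse was not so for any member called lower. The median standard error of the log2 fold change was 0.359 for the members, 0.128 for their hosts and 0.168 for all genes. The median log2 fold change was 0.07 for the members and 0.01 for all genes. In 54 members every knockdown library was above every control and in 43 below, out of 179, against 63.6% of all genes in which the groups did not overlap. MIR1281 and MIR6865 had too few counts in too many libraries to be tested. The calls depended on the libraries and the tool. Without either control replicate edgeR called none of the members (13 and 14 had an unadjusted p under 0.05). In such a fit the remaining control is assumed to vary like the knockdown pair, and MIR568, for example, stayed at 1.46 and 1.76 on the log2 scale. DESeq2, which gave an adjusted p to 121 members, called 3 of them, MIR568, MIR612 and MIR943. It called 22.7% of the 17396 genes to which it gave one.

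**Figure D2:**
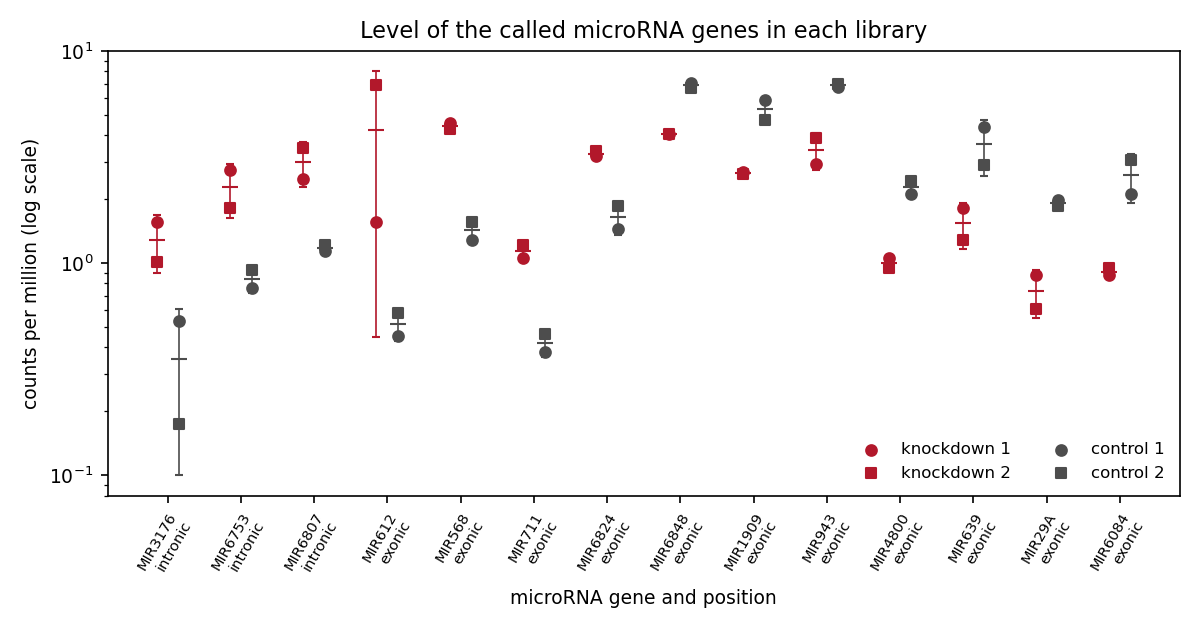
Level in CPM (log axis) of the 14 called microRNA genes in each library, with knockdown points left of control points and bars giving the mean and SD of 2 libraries. The knockdown points lie above the control points in the 7 genes called higher and below them in the 7 called lower.

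Among the exonic members, 4 were higher and 7 lower in the knockdown by edgeR (7.80%, against 25.6% of all genes). In all of these but MIR6824 the host was called in the same direction by edgeR. MIR568 lies in an untranslated region of ZBTB20, a zinc finger repressor. It had 73 and 64 counts in the knockdown libraries and 17 and 27 in the controls. The groups were well apart, and its level was 4.43 ± 0.177 CPM in the knockdown and 1.43 ± 0.193 CPM in the controls (SD, n = 2 each). Its log2 fold change was 1.62 (SE 0.320, edgeR adjusted p = 0.0035) and that of ZBTB20 was 1.76 (edgeR adjusted p = 0.0003). ZBTB20 had 5380 and 2549 counts in the knockdown libraries and 938 and 1352 in the controls, and its value was 1.18 without knockdown replicate 1 and 2.16 without knockdown replicate 2.

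MIR612 lies in NEAT1, the long noncoding RNA that builds nuclear paraspeckles, and had the largest log2 fold change of the called members. It had 25 and 103 counts in the knockdown libraries and 6 and 10 in the controls. Both knockdown libraries were above both controls, and the knockdown libraries also differed widely from each other. The log2 fold change was 2.99 (SE 0.642, edgeR adjusted p = 0.0054), and it was 1.56 without knockdown replicate 2 and 3.69 without knockdown replicate 1. NEAT1 itself had 6670 and 10796 counts in the knockdown libraries and 3485 and 5204 in the controls. It was also called higher by edgeR (log2 fold change 1.01, edgeR adjusted p = 0.0049) but not by DESeq2 (Wald test, adjusted p = 0.0529). The NEAT1 value was 0.55 without knockdown replicate 2 and 1.34 without knockdown replicate 1. Knockdown replicate 2 was the highest library for both genes.

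MIR711 shares 36 of its 76 bases with an exon of COL7A1, which encodes the collagen of anchoring fibrils. It had 17 and 18 counts in the knockdown libraries and 5 and 8 in the controls (log2 fold change 1.40, SE 0.480, edgeR adjusted p = 0.0497). COL7A1 was also higher, at 0.87 on the log2 scale (edgeR adjusted p = 0.0013). MIR6824 lies in SLC26A6, an anion exchanger gene, with 51 and 50 counts in the knockdown libraries and 19 and 32 in the controls (log2 fold change 0.98, SE 0.329, edgeR adjusted p = 0.046). Its host, at 0.36, did not pass the test (edgeR adjusted p = 0.0716), but it did without knockdown replicate 1, at 0.52 (edgeR adjusted p = 0.000588). In both members the groups did not overlap.

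The exonic members that were lower lay in genes that were lower too. MIR6084 lies in coding sequence of PINK1, a kinase that marks damaged mitochondria. It had 14 and 14 counts in the knockdown libraries and 28 and 53 in the controls. The groups did not overlap, and the log2 fold change was -1.52 (SE 0.386, edgeR adjusted p = 0.0132), beside -1.34 for PINK1. MIR639, in TECR, an enzyme of fatty acid elongation, had 29 and 19 counts in the knockdown libraries and 58 and 50 in the controls. Its log2 fold change was -1.22 (SE 0.359, edgeR adjusted p = 0.0261), beside -0.98 for TECR. It also overlaps an exon of DNAJB1 on the other strand, and the sources used here do not say whether counting used strand.

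MIR943, in NELFA, a subunit of the complex that pauses RNA polymerase II, had 47 and 58 counts in the knockdown libraries and 89 and 121 in the controls. Its log2 fold change was -1.01 (SE 0.272, edgeR adjusted p = 0.0172), beside -0.85 for NELFA. MIR1909, in REXO1, had 43 and 39 counts in the knockdown libraries and 77 and 82 in the controls. Neither member had overlapping groups, and MIR1909 had a log2 fold change of -0.99 (SE 0.287, edgeR adjusted p = 0.0242), beside -0.67 for its host. MIR4800, in MXD4, a transcriptional repressor that binds MAX, had 17 and 14 counts in the knockdown libraries and 28 and 42 in the controls (log2 fold change -1.18, edgeR adjusted p = 0.0345), and MXD4 was at -1.31. MIR6848, with 7 of its 70 bases in an exon of DGAT1, the enzyme of the last step of triglyceride synthesis, had 65 and 60 counts in the knockdown libraries and 93 and 116 in the controls (log2 fold change -0.76, edgeR adjusted p = 0.0438), and DGAT1 was at -0.54. All these hosts of lower members were themselves called lower by edgeR.

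MIR29A, named here after its values were seen, is a member of the miR-29 family, which is known to target collagen messages. Only 2 of its 64 bases lie in an exon, that of ENSG00000226380. It had 14 and 9 counts in the knockdown libraries and 26 and 32 in the controls, with no overlap between the groups (log2 fold change -1.35, SE 0.408, edgeR adjusted p = 0.0288). The gene around it, ENSG00000285106, was at -0.41 (edgeR adjusted p = 0.0386). Its relative MIR29C, in MIR29B2CHG, had 19 and 27 counts in the knockdown libraries and 30 and 28 in the controls and did not pass the test (edgeR adjusted p = 0.535).

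Exonic members and hosts were then set side by side. Of 135 hosts of exonic members, 16 were called higher and 16 lower, close to the 25.6% called of all genes, and 28 of the 32 members in a called host had a log2 fold change of the same sign as that host. Exonic here means an exon of any gene and not always one of the host, as MIR29A shows. Across 138 exonic members with a tested host, the log2 fold changes of member and host had r = 0.70 and rho = 0.68. These points come from the same 4 libraries, and some members share a host. Where a precursor lies in an exon of its host, the reads over it are likely in both counts. Member and host values are then not independent, so these values and the shared signs are a description. Members wholly in exons had a median log2 fold change of 0.04, with 3 higher and 5 lower of 106 (7.55% called). Members crossing an exon edge had a median of -0.03, with 1 higher and 2 lower of 35 (8.57% called).

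**Figure D3:**
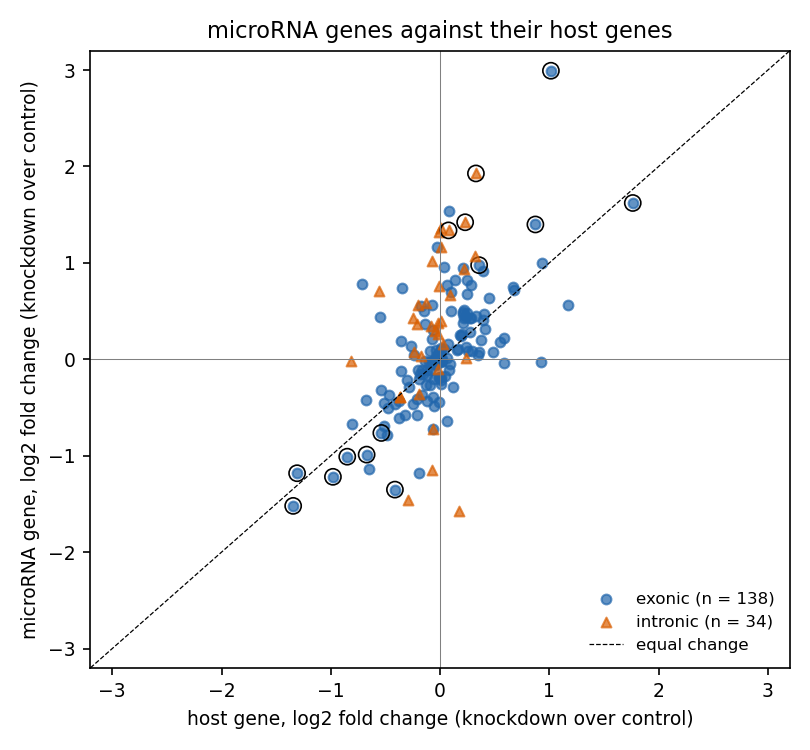
Log2 fold change (knockdown over control) of each microRNA gene (vertical axis) against that of its host (horizontal axis), for 138 exonic and 34 intronic members, with called members circled and a dashed line of equal change. The value of r is 0.70 for exonic and 0.35 for intronic points, and the difference was not tested. Exonic means an exon of any gene, not only of the host.

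Intronic members and their hosts were compared in the same way. Of 36 tested, 3 were higher in the knockdown and none lower by edgeR (8.33% called). Of all genes, 12.5% were called higher and 13.1% lower. The absence of lower members depends on the rule that 1 shared base makes a precursor exonic. Of the 35 members crossing an exon edge, which that rule counts as exonic, 1 was called higher (MIR711) and 2 lower (MIR29A and MIR6848), or 8.57%. Among the intronic members with a log2 fold change below 0, 3 had an unadjusted p under 0.05. DESeq2 called none of the 13 intronic members to which it gave an adjusted p. The edgeR count was 3 higher and 2 lower with no filter on low counts, 7 and 3 with the replicate block, 1 and 2 without knockdown replicate 1, and 6 and 0 without knockdown replicate 2. Of their 35 tested hosts edgeR called none higher (2 had an unadjusted p under 0.05) and 2 lower, and DESeq2 called 1 higher. The median log2 fold change of the intronic members was 0.35, with 25 above 0, and that of their hosts was -0.03. A similar median, 0.33 with 515 above 0, was found in 748 nested genes other than microRNA genes. These lay inside a host on the same strand and shared no base with its exons. Across the 34 members with a tested host, r was 0.35 and rho 0.47, again as a description. The difference from the exonic values was not tested, and the median standard error was 0.437 for intronic and 0.338 for exonic members. Intronic members had fewer counts than exonic ones, with medians of the mean count of 16.75 and 37.75.

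MIR6807, the short intron of TRIM28 printed above, had 40 and 52 counts in the knockdown libraries and 15 and 21 in the controls. The groups did not overlap, and its level was 2.996 ± 0.708 CPM in the knockdown and 1.18 ± 0.0551 CPM in the controls (SD, n = 2 each). The log2 fold change was 1.34 (SE 0.362, edgeR adjusted p = 0.0175). TRIM28, a corepressor of transcription, had 4459 and 4392 counts in the knockdown libraries and 3948 and 4227 in the controls, and its log2 fold change of 0.08 did not pass the test (edgeR adjusted p = 0.727).

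MIR6753 ends at an exon of TCIRG1, which encodes a subunit of the vacuolar proton pump. It had 44 and 27 counts in the knockdown libraries and 10 and 16 in the controls (log2 fold change 1.42, SE 0.404, edgeR adjusted p = 0.0222). TCIRG1 was at 0.23 and did not pass the test (edgeR adjusted p = 0.141). MIR3176 lies 2905 bases from the nearest exon of CAPN15, a gene of the calpain protease family. It had 25 and 15 counts in the knockdown libraries and 7 and 3 in the controls, with no overlap between the groups. Its log2 fold change was 1.93 (SE 0.569, edgeR adjusted p = 0.0262), and it was 2.80 without control replicate 1 and 1.25 without control replicate 2. CAPN15 was at 0.33 and did not pass the test (edgeR adjusted p = 0.0678), but it did without knockdown replicate 2, at 0.46 (edgeR adjusted p = 0.00369).

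The intronic members fell into those next to an exon and those apart from exons. This split, at 2 bases from a host exon, was made after the values were seen and has no test. Of the 37, 19 lay within 2 bases of an exon of the host, 17 lay apart from it, up to 10622 bases away, and MIR1244-2 had no same-strand host. Of the 19, 18 touched the downstream exon and 4 the upstream exon. Of the 17 that were flush with the downstream exon, 16 ended in AG, and the 3 flush with the upstream exon all began with GT, the letters of splice sites.

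Among the 18 tested members next to an exon, the median log2 fold change was 0.62, 14 were above 0 and 2 were called higher (MIR6807 and MIR6753). These called members are 11.1%, against 12.5% of all genes called higher. In 12 of the 18 both knockdown libraries were above both controls and in 1 below, against 32.3% and 31.3% of all genes. The 19 members next to an exon had a median mean count of 13.75, near the threshold of 10. Members with high counts in the knockdown alone could thus pass it, so these counts are a description and not support for a difference by position. MIR6765, in an intron of the Notch ligand gene JAG2, had 29 and 19 counts in the knockdown libraries and 8 and 13 in the controls. MIR6772, in an intron of the kinesin gene KIFC3, had 21 and 11 counts in the knockdown libraries and 6 and 6 in the controls. Neither of them passed the test (edgeR adjusted p = 0.066 and 0.077), and their hosts were each at 0.01 on the log2 scale. MIR6765 and MIR6772 were named after their values were seen. Among the 17 members apart from exons, the median was 0.16, 11 were above 0 and 1 was called higher (MIR3176, 5.88%). Without knockdown replicate 1 that median was -0.14, while the median next to an exon was 0.55.

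**Figure D4:**
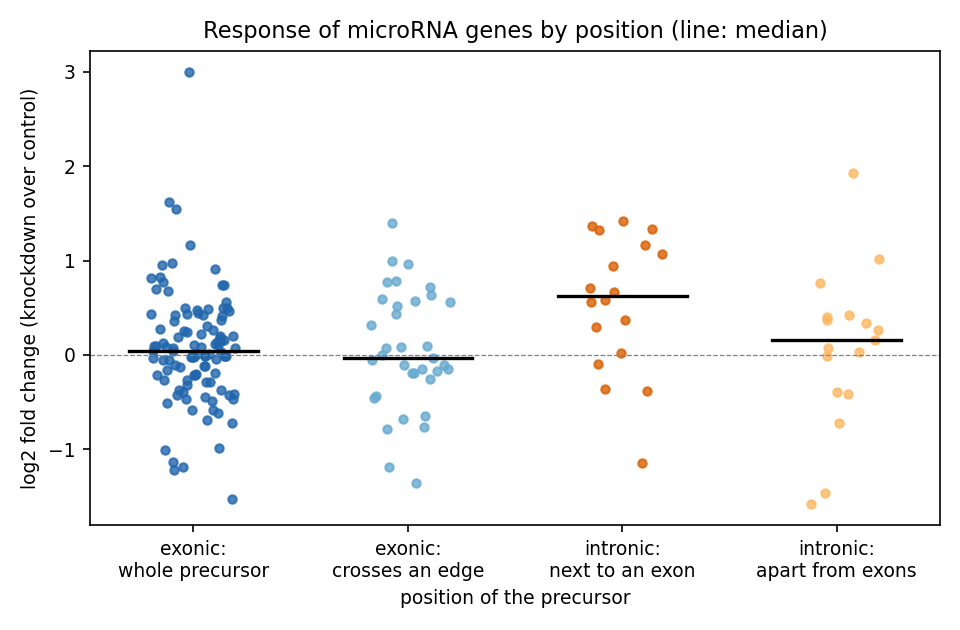
Log2 fold change (knockdown over control) of each tested microRNA gene by the position of its precursor, with a line at the median and points spread sideways for display. The medians are 0.04 and -0.03 in the exonic classes, 0.62 next to an exon and 0.16 apart from exons.

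Summed over members next to an exon, the level was 30.4 and 26.02 CPM in the knockdown libraries and 19.02 and 17.6 CPM in the controls. Summed over members apart from exons, it was 29.7 and 23.1 CPM in the knockdown libraries and 27.4 and 26.5 CPM in the controls. The groups did not overlap in the first sum and overlapped in the second. Intronic microRNA genes below the threshold of the rule summed to 59.5 and 51.6 CPM in the knockdown libraries and 38.1 and 36.7 CPM in the controls. Those below it in exons summed to 34.0 and 29.7 CPM in the knockdown libraries and 25.5 and 24.4 CPM in the controls. Intergenic ones summed to 5.18 and 5.78 CPM in the knockdown libraries and 3.33 and 4.17 CPM in the controls. All 3 sums below the threshold were higher in each knockdown library than in each control, without a test.

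**Figure D5:**
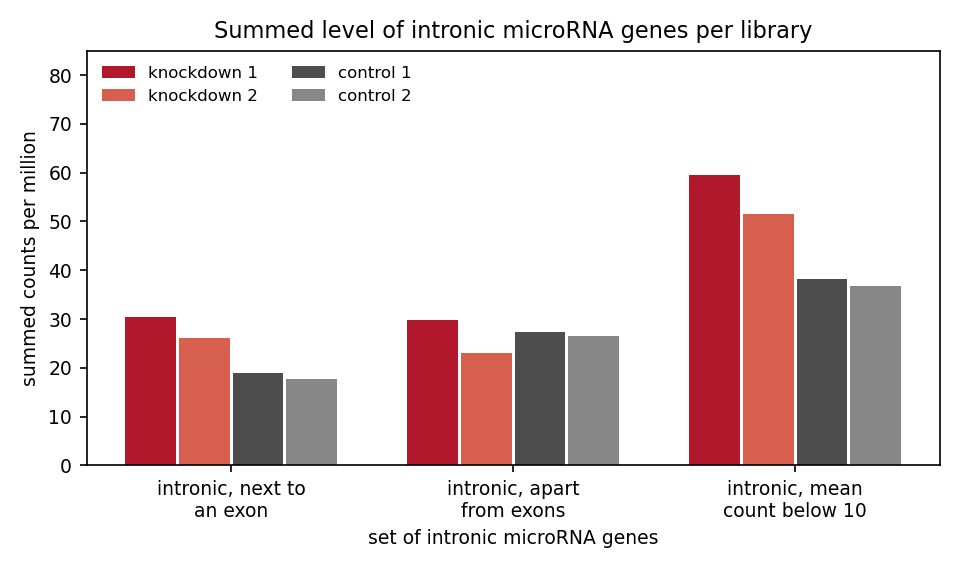
Summed CPM in each library (knockdown bars left of control bars) for intronic members next to an exon, intronic members apart from exons and intronic microRNA genes with a mean count below 10. The knockdown bars stand above the control bars in the first and last set, at 30.4 and 26.02 against 19.02 and 17.6 CPM in the first.

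Genes of other biotypes with low counts also had higher sums in the knockdown libraries, without a test. The 15040 genes other than microRNA genes with a mean count above 0 and below 10 summed to 2307 and 2457 CPM in the knockdown libraries and 1761 and 2008 CPM in the controls. Genes with at least 1 count numbered 30087 and 29914 in the knockdown libraries and 27840 and 29405 in the controls. The 7451 other genes with mean counts in the range of the members summed to 30750 and 32295 CPM in the knockdown libraries and 29703 and 32632 CPM in the controls. The part of these in the sums over intronic microRNA genes was not tested.

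Each member was also set against its host directly, by testing its count relative to the host count in the same library. This was fitted over 1735 pairs of a gene nested in another on the same strand, of which 122 were called (7.03%), 5.53% with a higher ratio to the host in the knockdown and 1.5% with a lower one. Of 172 member pairs edgeR called none, with 19 at an unadjusted p under 0.05, of which 16 were above the host and 3 below, and limma called none. The median log2 change relative to the host was 0.50 for intronic and 0.03 for exonic members. The smallest edgeR adjusted p was 0.0563, for ENSG00000280968 in AP1B1, a member that shares 96 of its 110 bases with the small nucleolar RNA gene SNORD125. It had 31 and 23 counts in the knockdown libraries and 11 and 20 in the controls, while AP1B1 was lower at -0.71 on the log2 scale. MIR6821, next to an exon of the kinase gene PIM3, had 28 and 22 counts in the knockdown libraries and 13 and 17 in the controls, and relative to PIM3 it was at 1.27 (edgeR adjusted p = 0.0667). MIR6807 relative to TRIM28 was at 1.24 (edgeR adjusted p = 0.079). Without knockdown replicate 1 a single member pair was called, MIR612 relative to NEAT1.

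Nested genes of other kinds were also split by whether they share bases with a host exon. Of 748 pairs whose nested gene was not a microRNA gene and shared no base with a host exon, 86 were called (11.5%), with a median log2 change relative to the host of 0.34. Of 802 such pairs that shared exon bases, 36 were called (4.49%), with a median of 0.0451. The difference between these medians was not tested.

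Known cancer microRNA families held about the same share of members as all microRNA genes, 8.51% and 9.64%. Of 47 genes of the families listed (let-7, the miR-17-92 cluster and its paralogs, miR-200, miR-21, miR-34 and other p53-linked genes, miR-210, miR-15, miR-16 and the miR-221 group), 4 were members, 22 were counted below the threshold and 21 had no count. MIR221, in an intron of MIR222HG and known as an oncogenic microRNA in epithelial cancers, had 96 and 70 counts in the knockdown libraries and 101 and 111 in the controls. MIR25, in an intron of the replication helicase gene MCM7, had 37 and 28 counts in the knockdown libraries and 31 and 31 in the controls. MIRLET7D, in MIRLET7A1HG, had 20 and 9 counts in the knockdown libraries and 12 and 13 in the controls. MIR92A1, in MIR17HG, had 21 and 6 counts in the knockdown libraries and 10 and 14 in the controls. None of the 4 passed the test (edgeR adjusted p = 0.296, 0.965, 0.830 and 0.886), none had an unadjusted p under 0.05, and DESeq2 called neither of the 2 to which it gave an adjusted p. MIR21, abundant as a mature microRNA in many carcinomas, had 2 and 10 counts in the knockdown libraries and 3 and 7 in the controls, below the threshold.

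The intergenic members lay close to other genes. MIR4737, 88 bases from HEATR6, had 25 and 23 counts in the knockdown libraries and 29 and 31 in the controls. MIR4444-2, 81 bases from the pseudogene HNRNPA3P6, had 17 and 22 counts in the knockdown libraries and 15 and 21 in the controls. MIR1281, 25 bases from EP300, had 32 and 8 counts in the knockdown libraries and 6 and 4 in the controls. Of the 2 tested, edgeR and DESeq2 called none and none had an unadjusted p under 0.05, and MIR1281 was not tested.

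Some values at the threshold and some identical precursors limit single members. MIR6751, MIR6865 and MIR1287 were just inside the threshold, with mean counts of 10, 10 and 10.25. MIR4722, MIR6763 and MIR6820 were just outside, each with a mean count of 9.75. Another microRNA gene has the same precursor sequence for 9 of the 181 members, among them MIR1244-1, MIR1244-2, MIR6859-1, MIR6859-4 and MIR4444-2, and the counts of these are uncertain because reads may be split between copies.

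Among 26 genes of microRNA processing and silencing, 5 were higher in the knockdown and none lower by edgeR, against 12.5% and 13.1% of all genes (3 of the lower ones had an unadjusted p under 0.05). DESeq2 called none lower of the 25 to which it gave an adjusted p. TNRC6A, a scaffold of silencing, had 5020 and 4162 counts in the knockdown libraries and 1898 and 2300 in the controls (log2 fold change 1.10, edgeR adjusted p = 0.000123). DICER1 was at 0.58 (edgeR adjusted p = 0.0137) and the Argonaute gene AGO3 at 0.47 (edgeR adjusted p = 0.0211). LIN28A, which blocks let-7 maturation, had 16 and 14 counts in the knockdown libraries and 0 and 1 in the controls. DROSHA, at 0.01, did not pass the test (edgeR adjusted p = 0.968).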

How the data were processed

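RNA sequencing counts of 2 RALY knockdown and 2 control libraries were used. Each library has a table of deposited raw counts by gene, in the featureCounts layout per the file headers. HISAT2 2.0.4, Subread, featureCounts and SAMtools, and the build GRCh38, are named in the submitters' processing notes. The sources used here give no strand or multiple-overlap setting. The 106 members lying wholly in exons still had mean counts of up to 231.75, so overlap with an exon did not keep reads from being counted for a precursor. Reads in a precursor that overlaps an exon are thus likely counted for both genes. Names and biotypes came from GENCODE release 44, which held 58472 of 58884 genes. Positions came from the exon columns of the deposited tables, counted from 1.

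Genes were filtered with filterByExpr (minimum count 10), scaled with TMM and passed to the quasi-likelihood test of edgeR 4.0.16 (R 4.3.3), with Benjamini-Hochberg adjustment over 19686 genes and calls at 0.05. Member to host changes used the log of the host count plus 0.5 as an offset, over 1735 nested pairs. The counting error of the host is not in that model. The scripts were tested on simulated data. Alternatives used DESeq2 1.42.0 and limma 3.58.1, other scalings and filters, the replicate number as a block, and each library left out. A count of 3 corresponds to 0.174 to 0.227 CPM. CPM values use TMM-scaled totals, and precision statements cover counting error and the spread between libraries only.

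The members, families and lists were chosen with earlier results of these data known. Named genes are RALY and, per position class, up to 6 called members in each direction by mean count, the 3 with the highest mean count, members of the listed families, called pairs, their hosts, and the members nearest the threshold. For the processing list up to 4 called genes with the smallest p are named. Of the genes outside this rule, only MIR29A, MIR6765 and MIR6772 are marked as such where they appear. ENSG00000280968 and MIR6821 also lie outside it and were picked for their low adjusted p relative to the host. MIR29C, DROSHA, the sequence example MIR3940 and other genes given as context were not chosen by the rule either.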

Additional observations from a re-analysis of the deposited data

How the results depend on the processing

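All 14 called members kept their direction in every setting tried, but not their calls. Against 7 higher and 7 lower, the fit with the replicate block gave 18 and 12. No source pairs the libraries, and same-numbered libraries correlated at 0.219 in their deviations. That value cannot decide whether the numbers mark pairs, so it is not known which of these fits is the better one. The DESeq2 Wald test gave 2 and 1. Leaving out 1 library gave 0 to 11 higher and 0 to 9 lower members, with none called without either control. Among all genes the leave-one-out counts ran from 340 to 2908 higher and from 508 to 3351 lower. Against 122 nested pairs called, the fit with the replicate block called 58, and leaving out 1 library gave 0 to 109. For member pairs these were 0 to 1. Intronic members numbered 71 when only precursors wholly in exons were exonic, and 13 at a mean count of 20. Intergenic members numbered 5 with the same strand only, 10 with protein-coding and lncRNA genes only, and 1 at a mean count of 20.

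Among named genes, direction reversed only in genes that edgeR did not call with all 4 libraries. Such genes could still move far, as MIR17HG was at -0.93 without knockdown replicate 1 and at 0.17 without knockdown replicate 2. The median over exonic members was -0.0572 without knockdown replicate 1 and -0.0247 without control replicate 2, and that over intronic members apart from exons was -0.14 without knockdown replicate 1. Hosts that gained a call with the replicate block were CAPN15 (0.32), SLC26A6 (0.35), PYROXD2 (-0.49) and MIRLET7A1HG (0.53). On the log2 scale, leaving out 1 library gave -0.34 to 0.25 for MIR1244-1, -0.0779 to 0.39 for MIR570, -0.16 to 0.31 for MIR4444-2, -0.97 to 0.73 for MIR92A1, -0.18 to 0.19 for MIR25 and -0.46 to 0.59 for MIRLET7D. Among hosts it gave -0.0768 to 0.20 for SYVN1, -0.30 to 0.0086 for HSP90B1, -0.93 to 0.17 for MIR17HG, -0.13 to 0.11 for DDX5, -0.0753 to 0.19 for TRIM28 and -0.0776 to 0.0915 for MUC20-OT1. With plain totals DDX5 was at -0.0091 and with no filter at -0.014. The cause was not tested. With 2 libraries a group and member counts near the threshold, differences of the size of the standard errors could not be resolved at this depth.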
